A study of Homo sapiens with 2 samples.

Results

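The genes described here are 52 genes of protein folding and quality control in the endoplasmic reticulum (ER), the compartment where secreted and membrane proteins are folded. They were chosen by function, with earlier results of these data known but with no threshold on a measured value, and matched to the expression table by Entrez number. The table held 51 of the 52 among its 16021 rows, and DERL3 was not analysed here. FPKM is the number of fragments per kilobase of transcript, scaled to library depth. All 51 passed the filter on low values, a mean FPKM of at least 1, as did 11413 rows of the table.

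Both libraries came from HGC-27, a human cell line from a gastric carcinoma, grown in the same medium and transduced with lentivirus. One carried an shRNA against DDX5, an RNA helicase of the DEAD-box family, and the other a non-targeting shRNA. Puromycin was given to both from 48 h after transduction, and cells were collected 1 week later. The labels name neither the number of shRNA sequences nor whether cells were cloned, and each condition had 1 library, so the spread between cultures is unknown and no test was possible. Every difference below is one between these 2 libraries, and where a pair of levels is given the non-targeting library comes first.

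In the ER, the HSP70 protein BiP and the HSP90 protein GRP94 bind unfolded chains, protein disulfide isomerases form and reshuffle disulfide bonds, and the lectins calnexin and calreticulin hold glycoproteins until they fold. Chains that fail are moved back to the cytosol and degraded by ER-associated degradation (ERAD). When unfolded chains build up, the sensors IRE1, ATF6 and PERK start the unfolded protein response (UPR), which raises the transcription of chaperone and ERAD genes. IRE1 splices the mRNA of the transcription factor XBP1, and ATF6 is cut by the site-1 and site-2 proteases before it enters the nucleus. Gene-level FPKM reads neither splicing of XBP1 nor cleavage of ATF6.

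A promoter sequence known as the ER stress element (ERSE) recruits ATF6 and XBP1 with the factor NF-Y. It consists of CCAAT, a spacer of 9 bases and then CCACG, and a compact form, ERSE-II, consists of ATTGG, 1 base and then CCACG. Both were searched for on both strands in RefSeq promoter windows (assembly GRCh38.p14) that run from 250 bases before to 50 bases after the transcription start. An exact ERSE was present in 27 of 35116 windows, 0.0769% of all windows, and an exact ERSE-II in 19, 0.0541%. Of 47 members with a window, 8 held an ERSE (17.0%) and 3 others an ERSE-II (6.38%). Counted by gene, as members are, the shares over all 27305 genes with a window were 0.0916% and 0.0696%. DERL1, MOGS, PDIA3 and UFD1 had no window in the table. The elements found in members are shown with the fixed letters in capitals and the spacer in lower case. Each is read 5′ to 3′ on the strand that carries it. In all, 11 members carried either element and 36 with a window carried neither. The elements are shown because genes that carry them lay on both sides of 0 in the comparison.
HSPA5: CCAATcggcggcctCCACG
HSP90B1, distal: CCAATcggaaggagCCACG
HSP90B1, proximal: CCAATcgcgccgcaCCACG
PDIA6: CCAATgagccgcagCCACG
CALR: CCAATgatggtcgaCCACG
CANX: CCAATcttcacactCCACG
CRELD2: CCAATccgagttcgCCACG
ERO1B: CCAATgaggcgggaCCACG
XBP1: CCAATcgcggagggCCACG
HYOU1, at both sites: ATTGGaCCACG
SDF2L1: ATTGGtCCACG
HERPUD1: ATTGGgCCACG

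Positions count from the transcription start, with -1 for the base before it. The ERSE of XBP1 lay at -52 to -34 and that of HSPA5 at -66 to -48, both on the strand of the gene. HSP90B1 carried an ERSE on each strand, the distal one at -194 to -176 and the proximal one at -89 to -71. HYOU1 carried an ERSE-II at -185 to -175 and another at -79 to -69, and the distal one overlapped a TGACGTG, the core of the UPR element bound by XBP1 and ATF6. That core was found in 5 members (DNAJC10, HYOU1, TXNDC11, TXNDC5 and VCP), 10.6% of the 47 with a window. It was found in 2.40% of all genes with a window and in 1.97% of all windows. The element CARE, TGATG followed by any base and then AA, binds ATF4 together with a C/EBP protein. It was found in 2 members, HERPUD1 and CREB3L2, 4.26% of the 47 with a window. That was close to its share of all genes with a window, 4.46%, and 3.62% of all windows held it. All 4 motifs were searched on both strands. A match is a description of these letters and not evidence of binding.

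The transcript of the targeted gene DDX5 (Entrez 1655) was at 170.5 FPKM with the non-targeting shRNA and at 50.78 FPKM with the DDX5 shRNA. The spacing of low FPKM values in short genes corresponded to about 1.54e+07 and 1.51e+07 fragments (estimated from 119 and 114 genes, respectively). Even the member with the fewest fragments then had about 106 in its higher library. Of 15 gastric and epithelial markers, 10 were listed and 5 reached a mean of 1 FPKM. Those 5 summed to 18.59 and 18.39 FPKM, with 3 of them higher with the DDX5 shRNA and KRT8 4-fold lower (5.24 and 1.31 FPKM). MUC1 was at 6.12 and 7.41 FPKM and GATA6 at 3.89 and 6.79, while EPCAM (0.04 and 0.39), CDH1 (0.36 and 0.07) and KRT18 (0.1 and 0.16) stayed under 1 FPKM. Of 6 mesenchymal markers 5 reached a mean of 1 FPKM, with a sum of 1754.95 and 1545.43 FPKM. VIM was lower with the DDX5 shRNA (1583.62 and 1270.59 FPKM), FN1 (4.76 and 5.99) and TWIST1 (98.96 and 199) were higher, and CDH2 was at 0.07 and 0. Of 6 leukocyte and endothelial markers 3 were listed, and CD68 was the only one at a mean of 1 FPKM, at 1.29 and 1.02. The part of marker differences in the results was not tested.

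Genes of ERAD and of UPR control were mostly higher with the DDX5 shRNA, whereas folding genes lay on both sides of 0. Log2 ratios compare FPKM + 1 with the DDX5 shRNA to that with the non-targeting shRNA, and 2-fold refers to this scale (1 or -1 in log2 units). Of 51 members, 4 were higher by 2-fold or more with the DDX5 shRNA (7.84%, against 4.19% of all 11413 genes): HERPUD1, DNAJB9, XBP1 and SEL1L. None was at least 2-fold lower (2.26% of all genes). Ratios above 0 were found for 32 members, 62.7% of them, against 51.97% of all genes. In bulk RNA, fewer cells of a type and less RNA per cell cannot be told apart. With both libraries scaled to the same total FPKM, the median of all genes shifted by -0.10. The counts over all genes were then 379 higher and 379 lower, in place of 478 and 258, and the 4 members stayed past 2-fold. Ratios above 0 were then found for 30 of the 51 members and for 4942 of the 11413 genes.

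**Figure D1:**
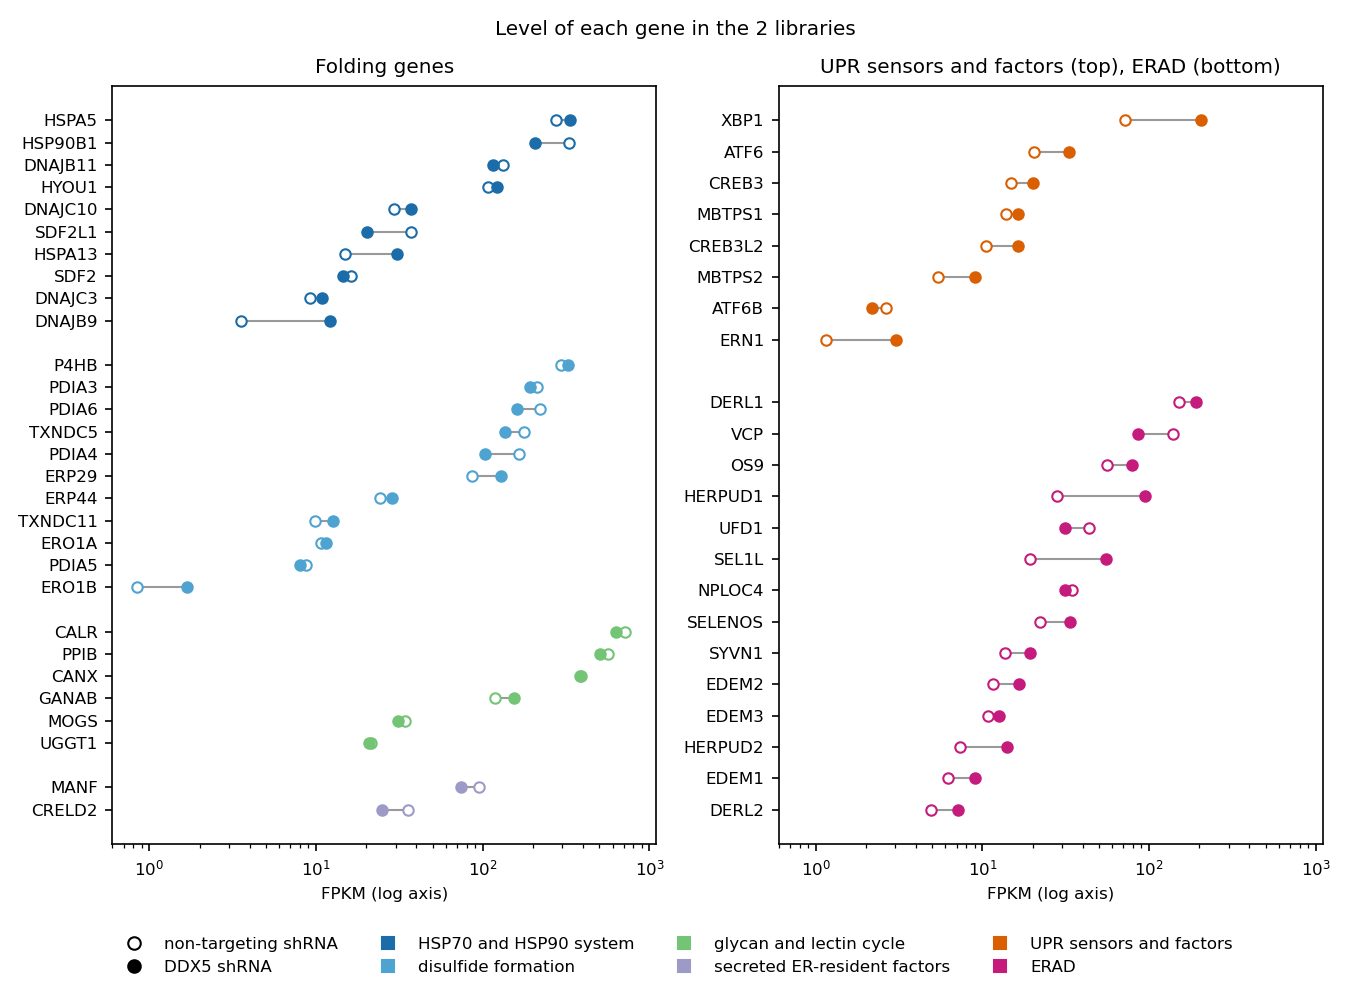
FPKM of each of the 51 genes on a log axis, open circles for the non-targeting library and filled circles for the DDX5 shRNA library, 1 library each, coloured by role. Folding genes have filled circles on either side of the open ones, while in the right panel the filled circles lie to the right for all genes but ATF6B, VCP, UFD1 and NPLOC4.

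The 29 folding genes had a median log2 ratio of -0.04, with 14 above 0, 15 below and DNAJB9 alone past 2-fold. Their FPKM summed to 4126.46 and 3836.94, a ratio of 0.930, which was 0.751% and 0.645% of the total FPKM. The 22 genes of ERAD and UPR control had a median of 0.48, with 18 above 0, and summed to 688.66 and 985.71 FPKM, a ratio of 1.43, or 0.125% and 0.166% of the total. Over all genes the median was 0.02 and the summed FPKM ratio 1.08. The folding set was the more abundant, with a median of 85.56 FPKM under the non-targeting shRNA against 14.4 FPKM for the other set. Medians were therefore also taken by level, a division made after the values were seen. Among genes at a mean under 50 FPKM the medians were 0.14 for 14 folding genes, 0.48 for 17 ERAD and UPR genes and 0.03 for all 9786 genes. At 50 FPKM or more they were -0.16 for 15 folding genes, 0.49 for 5 ERAD and UPR genes and -0.01 for all 1627 genes.

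**Figure D2:**
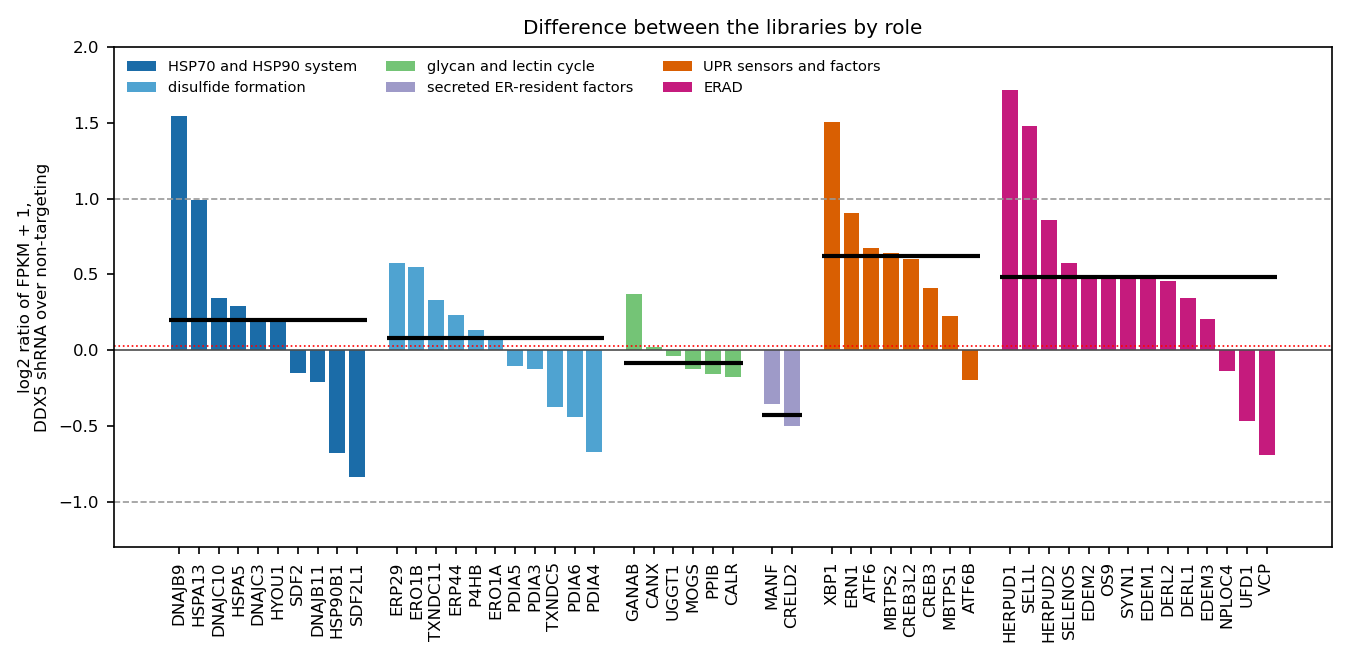
Log2 ratio of FPKM + 1, DDX5 shRNA over non-targeting shRNA, as a bar for each gene, grouped and coloured by role. Black lines are role medians, the dotted red line is the median of all genes tested (0.02) and dashed lines mark 2-fold. HERPUD1, DNAJB9, XBP1 and SEL1L pass the upper line and no gene passes the lower one.

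In the HSP70 and HSP90 system of the ER lumen, the genes of the main HSP70 and HSP90 chaperones lay on opposite sides of 0. HSPA5, which encodes BiP, the HSP70 of the ER and its central chaperone, was at 273.25 and 334.43 FPKM (log2 ratio 0.29). HSP90B1, which encodes GRP94, was at 328.51 and 204.59 FPKM (log2 ratio -0.68, 1.61-fold lower). The HSPA5 level was therefore 0.832 times that of HSP90B1 in the first library and 1.63 times in the second, so the order of the pair was reversed. Of their 50-base transcript windows, 10.1% (HSPA5) and 7.83% (HSP90B1) also occur in other annotated genes. Their promoters are shown whole because both carry the ERSE and their ratios lay on opposite sides of 0, with the fixed letters of each ERSE in capitals (GRCh38.p14, 5′ to 3′ on the strand of the gene).
HSPA5, chr9:125241294-125241593, minus strand: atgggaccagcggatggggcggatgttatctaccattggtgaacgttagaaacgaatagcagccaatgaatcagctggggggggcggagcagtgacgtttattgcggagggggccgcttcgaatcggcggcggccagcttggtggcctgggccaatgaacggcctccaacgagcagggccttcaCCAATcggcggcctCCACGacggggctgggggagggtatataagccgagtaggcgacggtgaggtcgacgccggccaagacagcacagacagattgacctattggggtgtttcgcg
HSP90B1, chr12:103930160-103930459, plus strand: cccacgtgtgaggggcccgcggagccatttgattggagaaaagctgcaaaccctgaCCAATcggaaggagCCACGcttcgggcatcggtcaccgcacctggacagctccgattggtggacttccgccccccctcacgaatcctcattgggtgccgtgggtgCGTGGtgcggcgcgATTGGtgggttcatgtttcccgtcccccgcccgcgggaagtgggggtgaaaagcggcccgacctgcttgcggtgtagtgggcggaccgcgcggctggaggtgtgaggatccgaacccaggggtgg

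The nucleotide exchange factor HYOU1, which resets BiP, was at 106.98 and 122.08 FPKM (log2 ratio 0.19). HSPA13, a second HSP70-like protein of the ER, was at 14.85 and 30.49 FPKM, a log2 ratio of 0.99 that lay just under 2-fold and passed it with a pseudocount of 0.1 (1.03). J-domain proteins hand substrates to BiP and stimulate its ATPase. Among them, DNAJB9, which also holds IRE1 in its inactive state, was at 3.52 and 12.19 FPKM (log2 ratio 1.55, 3.46-fold). These values correspond to about 147 and 501 fragments. The abundant DNAJB11, which shares 17.4% of its 50-base windows with another annotated gene, was at 132.83 and 114.43 FPKM (log2 ratio -0.21). DNAJC3, also an inhibitor of the kinase PERK, was at 9.18 and 10.78 FPKM, and DNAJC10, which also reduces disulfides, at 29.17 and 37.21 FPKM (log2 ratios 0.21 and 0.34). DNAJB9 was thus 0.0265 times as abundant as DNAJB11 in the first library and 0.107 times in the second.

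SDF2L1, a subunit of the DNAJB11 complex that keeps substrates soluble, was at 37.03 and 20.24 FPKM and had the lowest log2 ratio of all members, -0.84 (1.83-fold lower). Its paralog SDF2 was at 16.27 and 14.58 FPKM (log2 ratio -0.15). SDF2L1 was 2.28 times as abundant as SDF2 under the non-targeting shRNA and 1.39 times under the DDX5 shRNA. Over the 10 genes of the HSP70 and HSP90 system, 6 were above 0 and 4 below, with a median of 0.20. The genes below 0 were HSP90B1 and the 3 genes SDF2L1, SDF2 and DNAJB11.

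Among genes of disulfide formation, several abundant isomerases were lower with the DDX5 shRNA and P4HB was not. P4HB, the founding protein disulfide isomerase and also a subunit of collagen prolyl hydroxylase, was at 295.12 and 323.08 FPKM (log2 ratio 0.13). PDIA3, which works with calnexin and calreticulin, was at 210.12 and 192.97 FPKM, PDIA6 at 219.47 and 160.93 FPKM, and TXNDC5 at 176.18 and 135.27 FPKM (log2 ratios -0.12, -0.45 and -0.38). PDIA4, an isomerase found in complexes with BiP, was at 164.11 and 102.45 FPKM (log2 ratio -0.67, 1.60-fold lower). P4HB was thus 1.80 times as abundant as PDIA4 in the non-targeting library and 3.15 times in the DDX5 shRNA library. The low-level isomerase PDIA5 was at 8.73 and 8.03 FPKM (log2 ratio -0.11). TXNDC5 shares 89.4% of its 50-base windows with the read-through gene BLOC1S5-TXNDC5, and PDIA3 shares 17.4% with the copy PDIA3P1. Their levels may thus depend on how reads were divided, but neither of these other genes was listed under its name.

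ERP29, a thioredoxin-fold protein without isomerase activity, had the highest log2 ratio of the role, 0.57, at 85.56 and 127.74 FPKM. ERP44, which retrieves escaped oxidases from the Golgi, was at 24.26 and 28.63 FPKM, and the membrane-bound TXNDC11 at 9.81 and 12.62 FPKM (log2 ratios 0.23 and 0.33). The oxidase ERO1A, which reoxidises P4HB and is known as a target of CHOP and of hypoxia, was at 10.74 and 11.4 FPKM, a log2 ratio of 0.08 that was -0.03 at the same total FPKM. Its paralog ERO1B was at 0.84 and 1.69 FPKM, about 59 and 117 fragments (log2 ratio 0.55). With a pseudocount of 0.1 the log2 ratio of ERO1B was 0.93, above that of ERP29 (0.58). Of the 11 genes, 6 were above 0 and none was 2-fold apart. The median was 0.08, and it was -0.03 at the same total FPKM and -0.01 over genes at a mean of 5 FPKM or more, so the role had no direction that held under these settings.

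The glycan and lectin cycle held the most abundant members, CALR, PPIB and CANX, each with a small difference. CALR, which encodes the soluble lectin calreticulin, was at 714.17 and 630.06 FPKM (log2 ratio -0.18). CANX, its membrane-bound counterpart calnexin, was at 384.28 and 389.21 FPKM, a log2 ratio of 0.02 that was below 0 at the same total FPKM (-0.10) and with centring on the median (-0.01). PPIB, a prolyl isomerase of the ER, was at 567.03 and 507.07 FPKM (log2 ratio -0.16). CALR was 1.86 times as abundant as CANX with the non-targeting shRNA and 1.62 times with the DDX5 shRNA. Glucosidase II, whose catalytic subunit is GANAB, trims the glycan for lectin binding, and GANAB was at 119.09 and 154.38 FPKM (log2 ratio 0.37). Glucosidase I (MOGS) was at 34.02 and 31.06 FPKM, and the folding sensor UGGT1, which tags misfolded glycoproteins for another round, at 21.4 and 20.79 FPKM (log2 ratios -0.13 and -0.04). The log2 ratios of the other 5 genes lay between -0.18 and 0.02, and the median of all 6 was -0.08.

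MANF and CRELD2, small ER proteins that can be secreted during ER stress, were both lower in the DDX5 shRNA library. MANF was at 94.37 and 73.67 FPKM (log2 ratio -0.35). CRELD2 was at 35.57 and 24.87 FPKM (log2 ratio -0.50).

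Among the 8 UPR sensors and factors, 7 were higher in the DDX5 shRNA library, with a median log2 ratio of 0.62. XBP1 was the most abundant, at 71.41 and 204.26 FPKM (log2 ratio 1.50, 2.86-fold). ERN1, which encodes IRE1, was at 1.15 and 3.03 FPKM, about 139 and 362 fragments. Its log2 ratio of 0.91 lay under 2-fold and was 1.32 with a pseudocount of 0.1. XBP1 mRNA was 62.1 times as abundant as ERN1 mRNA in the first library and 67.4 times in the second, so both were higher by a similar factor. The XBP1 promoter with its ERSE in capitals is shown because it was the one UPR factor past 2-fold (GRCh38.p14, 5′ to 3′ on the strand of the gene).
XBP1, chr22:28800520-28800819, minus strand: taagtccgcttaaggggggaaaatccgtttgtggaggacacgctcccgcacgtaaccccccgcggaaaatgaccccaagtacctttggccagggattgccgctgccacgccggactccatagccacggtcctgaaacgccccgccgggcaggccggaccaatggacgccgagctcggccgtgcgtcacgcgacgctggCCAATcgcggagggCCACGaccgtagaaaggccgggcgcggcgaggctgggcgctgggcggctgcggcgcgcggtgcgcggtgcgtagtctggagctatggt

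ATF6 was at 20.53 and 33.3 FPKM (log2 ratio 0.67), and its weaker paralog ATF6B at 2.64 and 2.18 FPKM (log2 ratio -0.19). ATF6 was thus 7.78 times as abundant as ATF6B in the non-targeting library and 15.3 times in the DDX5 shRNA library. ATF6B was the single member of the role below 0, and 10.1% of its 50-base windows occur in other annotated genes. Of the proteases that release ATF6, the site-1 protease MBTPS1 was at 13.9 and 16.37 FPKM and the site-2 protease MBTPS2 at 5.45 and 9.07 FPKM (log2 ratios 0.22 and 0.64). The related membrane-bound factors CREB3 and CREB3L2, cut by the same proteases, were at 14.93 and 20.13 FPKM and at 10.51 and 16.44 FPKM (log2 ratios 0.41 and 0.60).

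The ERAD genes differed between components of the ER membrane and lumen and the cytosolic extraction complex, a division made after the values were seen. All 11 members for lumenal and membrane components had ratios above 0, also at the same total FPKM and with centring on the median, and their median was 0.49. The division covers members only, and ERAD factors outside them, given below, lay on both sides of 0. HERPUD1, a membrane protein that assembles the degradation complex, had the highest log2 ratio of all 51 members, 1.72, at 28.18 and 94.87 FPKM (3.37-fold). With a pseudocount of 0.1 DNAJB9 ranked above it (1.76 against 1.75). The HERPUD1 paralog HERPUD2 was at 7.32 and 14.1 FPKM (log2 ratio 0.86), so HERPUD1 was 3.85 times as abundant as HERPUD2 in the first library and 6.73 times in the second. HERPUD1 was the one member whose window held both an ERSE-II and a CARE, and its promoter is shown for that reason. Capitals mark the fixed letters of both elements, the CARE on the opposite strand at -176 to -169 and the ERSE-II at -117 to -107 (GRCh38.p14, 5′ to 3′ on the strand of the gene).
HERPUD1, chr16:56931892-56932191, plus strand: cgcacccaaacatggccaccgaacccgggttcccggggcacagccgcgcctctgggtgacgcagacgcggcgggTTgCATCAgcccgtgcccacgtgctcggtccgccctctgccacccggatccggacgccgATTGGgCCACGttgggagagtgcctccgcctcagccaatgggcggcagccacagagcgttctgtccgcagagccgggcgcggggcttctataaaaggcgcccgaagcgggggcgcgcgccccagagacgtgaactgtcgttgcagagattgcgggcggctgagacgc

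SEL1L, the scaffold that links substrate recognition to the ubiquitin ligase, was at 19.19 and 55.14 FPKM (log2 ratio 1.48, 2.87-fold). SYVN1, which encodes that ligase, HRD1, was at 13.61 and 19.43 FPKM (log2 ratio 0.48). The scaffold was therefore 1.41 times as abundant as the ligase in the non-targeting library and 2.84 times in the DDX5 shRNA library. The derlins, rhomboid-like proteins of the exit channel, differed widely in level but little in ratio. DERL1 was at 150.21 and 191.13 FPKM and DERL2 at 4.93 and 7.14 FPKM (log2 ratios 0.35 and 0.46), and DERL1 was 30.5 and 26.8 times as abundant as DERL2. The lectin OS9, which delivers trimmed glycoproteins, was at 56.02 and 78.81 FPKM (log2 ratio 0.49). The mannose-trimming EDEM genes followed the same direction: EDEM1 was at 6.21 and 9.03 FPKM, EDEM2 at 11.56 and 16.59 FPKM and EDEM3 at 10.81 and 12.6 FPKM (log2 ratios 0.48, 0.49 and 0.20). SELENOS, a selenoprotein that brings VCP to the membrane, was at 22.09 and 33.45 FPKM (log2 ratio 0.58).

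The 3 genes of the cytosolic complex that pulls substrates out of the membrane all lay below 0. VCP, the ATPase of the complex, was at 139.73 and 86.08 FPKM (log2 ratio -0.69, 1.62-fold lower). Its substrate-binding cofactors UFD1 and NPLOC4 were at 43.77 and 31.37 FPKM and at 34.51 and 31.19 FPKM (log2 ratios -0.47 and -0.14). Their FPKM summed to 218.01 and 148.64, a ratio of 0.682, against 1.61 for the 11 lumenal and membrane genes.

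**Figure D3:**
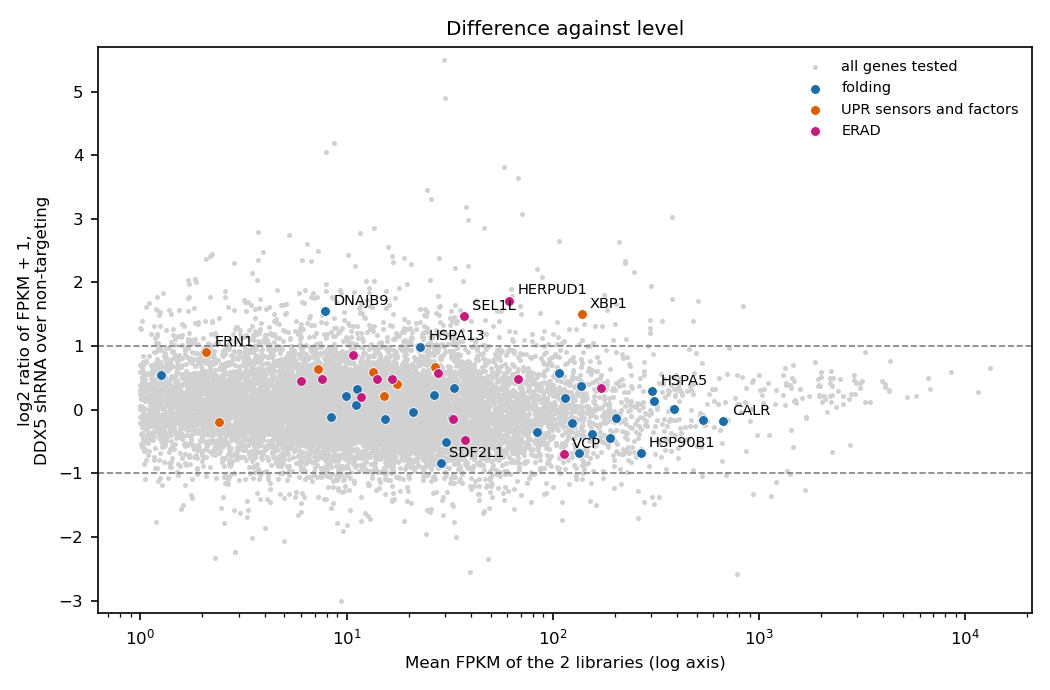
Log2 ratio of FPKM + 1 against the mean FPKM of both libraries on a log axis, for all 11413 genes tested in grey and for the 51 members in colour by arm, with dashed lines at 2-fold. Members lie inside the cloud of all genes, with HERPUD1, SEL1L, XBP1 and DNAJB9 above the upper line.

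Abundant members, most of them folding genes, tended to have lower ratios. Under 50 FPKM and from 50 FPKM, medians were 0.14 and -0.16 for folding genes. For ERAD and UPR genes they were 0.48 and 0.49, the latter over 5 genes. Across the 51 members the Spearman correlation of the log2 ratio with mean FPKM was -0.39, and across all 11413 genes it was -0.09. These points come from the same 2 libraries and are not independent, and the ratio and the mean are computed from the same values.

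Members with an ER stress element had the lower median. The 11 members with an ERSE or ERSE-II had a median log2 ratio of 0.02, with 6 above 0, and HERPUD1 and XBP1 passed 2-fold (18.2%). The 36 members whose window held neither had a median of 0.34, with 25 above 0, and DNAJB9 and SEL1L passed 2-fold (5.56%). Of the 9279 tested genes with a window, 3.99% were at least 2-fold higher. The share past 2-fold was thus larger with an element, although the median was lower. The 2 sets also differed in make-up and level. Folding genes were 9 of the 11 and 18 of the 36, and median levels in the non-targeting library were 106.98 and 15.6 FPKM. Among folding genes alone the medians were -0.18 with an element and 0.10 without. The part of role and level in the difference was not tested. CANX lay near 0, and at the same total FPKM 5 of the 11 and 24 of the 36 were above 0, against 4942 of all 11413 genes. The 17 other genes tested with either element had a median of -0.05, with 8 above 0 (5 at the same total FPKM). The highest of these were SERP1 and FICD and the lowest SHCBP1 and ZNF143. SERP1, which stabilises membrane proteins at the translocon, was at 26.83 and 63.65 FPKM (log2 ratio 1.22), and FICD, which adds AMP to BiP, was at 1.25 and 2.93 FPKM (0.80). SHCBP1 was at 21.9 and 11.6 FPKM (-0.86) and ZNF143, a zinc finger transcription factor, at 6.85 and 3.61 FPKM (-0.77). Single elements were shared between neighbouring genes. The element of CRELD2 was also that of ALG12, a mannosyltransferase gene read in the other direction that was at 9.35 and 11.04 FPKM (0.22, against -0.50 for CRELD2), and that of SERP1 was also found in the window of EIF2A, at 31.15 and 28.1 FPKM (-0.14).

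**Figure D4:**
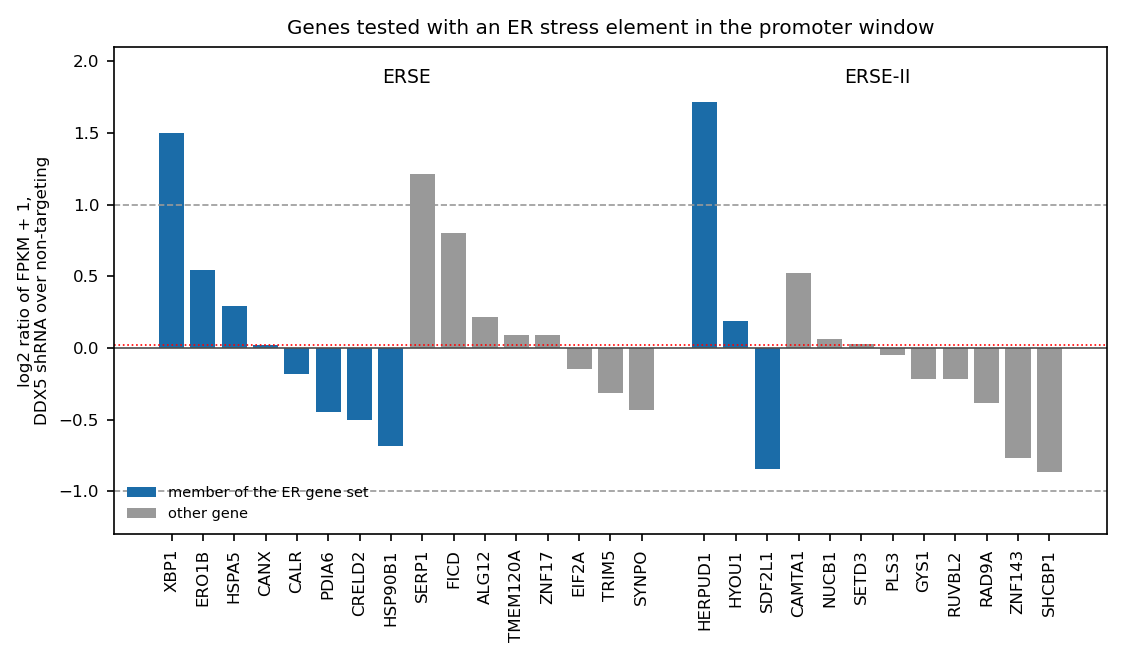
Log2 ratio of FPKM + 1, DDX5 shRNA over non-targeting shRNA, for each gene tested whose promoter window holds an exact ERSE (left) or ERSE-II (right), members in blue and other genes in grey. The dotted red line is the median of all genes tested and dashed lines mark 2-fold. Among members the bars run from 1.72 (HERPUD1) to -0.84 (SDF2L1), and both of these hold an ERSE-II.

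Textbook target lists of ATF6 and XBP1 also had different medians. All 12 ATF6 targets of the list are members described above and XBP1 targets overlap them in part, so neither list is independent of the values given. Most XBP1 targets are also in the translocon and signal peptidase list below, so those lists share values. Of the 12 ATF6 targets, 4 were above 0 (HERPUD1, XBP1, HSPA5 and HYOU1) and the median log2 ratio was -0.28. HERPUD1 and XBP1 passed 2-fold (16.7% of the list, against 4.19% of all genes). Of 11 XBP1 targets, 10 were above 0 (9 at the same total FPKM) and the median was 0.42. Only DNAJB9 among them passed 2-fold (9.09%). TRAM1, a translocation factor, was at 50.69 and 87.44 FPKM, the receptor subunit SRPRB at 23.52 and 35.69 FPKM and the coat gene SEC24D at 14.93 and 21.42 FPKM. In the PERK and ATF4 branch, 8 of 12 genes were higher by 2-fold or more (66.7%, against 4.19% of all genes) and 11 were above 0. They were led by TRIB3, CHAC1, DDIT3 and SESN2 with log2 ratios from 3.64 to 2.38. EIF2AK3, which encodes PERK itself, was at 7.21 and 8.66 FPKM (0.23). EIF2S1 was the 1 gene of the list below 0, at 48.49 and 33.77 FPKM (-0.51). The activity of PERK was not tested. The median of the list was 2.03, and the largest ratio among the members, 1.72, lay below it.

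In 5 further gene lists of the ER most genes had ratios above 0 and none was 2-fold apart. In the translocon and signal peptidase list 15 of 17 genes were above 0 (14 at the same total FPKM), with a median of 0.33, and SEC63, the membrane partner of BiP at the translocon, was at 20.04 and 36.48 FPKM. The oligosaccharyltransferase list had 7 of 10 above 0 (6 at the same total FPKM) and a median of 0.22, led by KRTCAP2 (220.65 and 311.29 FPKM) and OST4 (287.56 and 404.25 FPKM). Of 22 other folding enzymes, 15 were above 0 with a median of 0.17. TMX3, a membrane-bound isomerase, was at 11.67 and 22 FPKM, SIL1, an exchange factor of BiP, at 22.74 and 41.24 FPKM, and the collagen prolyl isomerase FKBP10 at 129.82 and 198.14 FPKM. Of 21 other ERAD factors, 14 were above 0 with a median of 0.24. The ubiquitin ligase RNF5 was at 41.83 and 76.63 FPKM, whereas UBE2G2, a ubiquitin-conjugating enzyme of ERAD, was at 45.09 and 28.17 FPKM. Also below 0 were FAF2, a membrane protein, at 40.61 and 29.88 FPKM (log2 ratio -0.43) and FOXRED2, a lumenal one, at 30.2 and 23.96 FPKM (-0.32). The UFMylation list, a ubiquitin-like system at the ER membrane, had 6 of 7 above 0 with a median of 0.26 and UFSP2 highest, at 16.5 and 32.63 FPKM.

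Receptors of ER-phagy, the autophagy of ER, held the largest differences among these further groups outside the PERK and ATF4 branch. Of the 5 genes of this list tested, all were above 0 (4 at the same total FPKM) and the median was that of RTN3. In this short list 2 genes were higher by 2-fold or more (40%, against 4.19% of all genes). SEC62, placed in the translocon list and not counted here, was lower, at 22.8 and 17.63 FPKM (log2 ratio -0.35). CCPG1, an ER-phagy receptor, was at 6.27 and 34.57 FPKM (log2 ratio 2.29). CALCOCO1, another receptor, was at 5.16 and 18.43 FPKM (log2 ratio 1.66). RTN3, a reticulon that shapes ER tubules, was at 97.25 and 195.49 FPKM, a log2 ratio of 0.9999 that lay just under 2-fold, and ATL3 at 12.88 and 13.97 FPKM.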

How the data were processed

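Per the file headers, the authors deposited FPKM, 1 column per library. Reads were handled with RSEM 1.2.8, Bowtie2 and HISAT on hg19, per the submitters' processing notes, which do not order the tools. The sources used here give no annotation, strand setting or filter. Columns were tied to groups by sample title. RefSeq names (GRCh38.p14) matched 15289 of 16021 rows.

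The log2 ratio of FPKM + 1 was taken for each gene, which understates differences of low genes. Genes at a mean of 1 FPKM or more (11413) entered counts and medians. A fold printed for 1 gene is the ratio of deposited FPKM. With 1 library per group there was no test. Depth was estimated from the steps of low FPKM values in short genes with 1 transcript: 68.1% and 64.9% lay within 0.15 of a whole step, against 30% for a step fixed beforehand, and the step was chosen for its fit to the same genes. Approximate fragments use the longest GENCODE v29 coding transcript and can be too high. Of the 51 members, 45 shared under 5% of their 50-base windows (taken every 10 bases) with another gene. For 6 (PPIB, PDIA6, PDIA3, ERP29, SDF2 and DNAJB11) over 15% of exon bases lie under a gene of the other strand, whose reads cannot be told apart without strand.

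The members and lists were chosen with earlier results of these data known. All members are named, and up to 4 genes of each other list by absolute ratio. Some genes that this rule names are left out of the text. Other genes are named because their promoter holds an element or as markers. EIF2AK3, EIF2S1, SEC62, FAF2 and FOXRED2 were named after their values were seen. Python 3.11.15, numpy 2.4.6, pandas 2.3.3 and matplotlib 3.10.9 were used, and the ratio code was tested on simulated data. Alternatives were 2 scalings, 2 pseudocounts and 2 filters.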

Additional observations from a re-analysis of the deposited data

How the results depend on the processing

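The counts of members at least 2-fold higher (4) and lower (0) were within 1.5 times under all 6 alternatives, with 6 higher at a pseudocount of 0.1, where HSPA13 and ERN1 also passed. No member past 2-fold changed direction. At the same total FPKM, which lowers every ratio, medians were 0.11 for all members, 0.090 for the HSP70 and HSP90 system, -0.027 for disulfide formation, -0.19 for the glycan and lectin cycle, 0.52 for UPR sensors and factors and 0.37 for ERAD, and the summed FPKM ratios were 0.859 for folding genes and 1.32 for ERAD and UPR genes. At a pseudocount of 5, which shrinks low genes, the UPR median was 0.41, the ERAD median 0.36 and the folding median minus the ERAD and UPR median -0.42, in place of -0.52. Over all genes 478 were higher by 2-fold or more and 258 lower, against 743 and 390 at a pseudocount of 0.1 and 194 and 102 at 5. The medians and summed ratios of roles and arms under other settings moved by less than 0.1 in log2 units. ERO1A and CANX changed sign at the same total FPKM, and CANX with centring on the median. Without a second library per group the spread between cultures limits every statement, and depth limits ERO1B, ERN1 and ATF6B most.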

Other observations

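Transcripts that IRE1 is known to cut showed no common direction. BLOC1S1, the best known of them, was at 89.1 FPKM with the non-targeting shRNA and 154.02 FPKM with the DDX5 shRNA, HGSNAT at 6.65 and 8.8 FPKM and COL6A1 at 40.31 and 51.14 FPKM, while SCARA3 was at 9.35 and 2.3 FPKM (log2 ratio -1.65). Over all 247 genes tested whose promoter window held a CARE, 23 were at least 2-fold higher (9.31%, and 3.99% of the 9279 tested genes with a window), 4 were at least 2-fold lower and the median log2 ratio was 0.13.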
